A study of Homo sapiens with 6 samples.

Results

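The SLC25 genes encode the mitochondrial carriers, the membrane proteins that move metabolites between the cytosol and the mitochondrial matrix. The members described here are the genes of the deposited table whose symbol is SLC25A followed by a number. There were 48 of them among 28395 genes, and 39 had a mean signal of at least 10 and were tested among 14215 genes. Relatives that carry other symbols (UCP1, UCP2, UCP3, MTCH1 and MTCH2) are given separately.

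RNA-seq was performed on HCC827, an established human lung adenocarcinoma cell line with an activating deletion in EGFR. Of the 6 libraries, 3 came from cells given the vehicle DMSO and 3 from cells given erlotinib, an EGFR kinase inhibitor, at 1 μM, in both cases for 24 h. No transgene or genetic change separated the groups, and all libraries came from the same line. The labels do not say that the libraries came from separate cultures. The study's methods say in general that its experiments were repeated independently, without naming these libraries. The p-values therefore measure only the spread between these libraries, which may be technical.

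Most carriers sit in the inner mitochondrial membrane, are built from repeats of the same membrane module, and exchange a metabolite on one side for another on the other side. They carry ADP and ATP, phosphate, amino acids, carboxylates, iron and cofactors, and so tie ATP synthesis, the malate-aspartate shuttle, the urea cycle, one-carbon metabolism and haem synthesis to the cytosol. They are encoded in the nucleus, made in the cytosol and inserted by the TOM and TIM22 translocases. Rapidly dividing cells depend mostly on the ADP/ATP carrier SLC25A5, while SLC25A4 is the form of muscle and heart.

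The values are signal, that is reads divided by 1 size factor per library. Values were whole multiples of a library's own step in all 6 libraries, and reads were recovered from 5 of them, with totals of 20858083, 24641819 and 21172884 reads on genes in DMSO1 to DMSO3, and 21944007 and 21678395 in Erlo4 and Erlo6. For Erlo5, whose step of 0.99 lay too close to 1 for the test of recovered reads that was applied, reads were not used, and its signal summed to 20551934. DMSO2 stood apart from the other DMSO libraries: its value was the outermost of the 3 for 48.1% of all tested genes and for 26 of the 39 members. Without DMSO2 all 27 falls and all 6 rises given below were still called, and SLC25A14 was added to the rises (log2 fold change 0.43, adjusted p = 0.022 with limma). Epithelial markers were abundant, with EGFR itself at a mean signal of 62592 and EPCAM at 9852 ± 235 in the DMSO libraries and 9485 ± 281 in the erlotinib libraries (SD, n = 3 per group, as for all values given with ±). The summed signal of the 6 epithelial markers was 237586, 222228 and 226487 in DMSO and 152092, 153495 and 159147 with erlotinib. Of these 6, 4 passed the test as lower, and KRT18 fell the most (log2 fold change -1.25, adjusted p = 1.6e-12). Markers of other cells were low, apart from CD68, a lysosomal protein best known from macrophages. The 4 fibroblast markers summed to 72.6, 73.4 and 104 in DMSO and 258, 223 and 211 with erlotinib, nearly all of it COL1A1, which rose (log2 fold change 1.47, adjusted p = 6.8e-07). The 3 endothelial markers summed to 34.0, 15.8 and 20.3 in DMSO and 58.1, 42.6 and 43.1 with erlotinib, and VWF rose from a mean signal of 3.94 to 27.4 (log2 fold change 2.74, adjusted p = 6.6e-04). The 4 immune markers summed to between 2782 and 3532, of which CD68, which rose slightly (log2 fold change 0.23, adjusted p = 0.00762), made up a mean of 3146, while PTPRC, the pan-leukocyte marker, had a mean signal of 3.27 and CD3E one of 1.67. Erythroid markers summed to at most 6.46. The part of these markers in the carrier results was not tested.

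Carrier transcripts were mostly lower with erlotinib. Of the 39 tested members, 27 fell (69.2%), where 35.4% of all tested genes fell, and 6 rose (15.4%), where 35.3% of all tested genes rose, at an adjusted p-value under 0.05 in limma with Benjamini-Hochberg adjustment over all 14215 genes. The median log2 fold change of the tested members was -0.39, with an interquartile range of -0.83 to 0.07, beside a median of 0.02 and a range of -0.53 to 0.68 over all tested genes. A fall of at least 1 log2 unit was called for 6 members, beside 10.8% of all tested genes, and a rise of that size for 3, beside 17.0%. In either direction 33 members were called, beside 70.7% of all tested genes. In 35 of the 39 members the libraries of the groups did not overlap, as was so for 73.6% of all tested genes. The deposited scaling bears on the split. Scaled to the total count, 18 members fell and 8 rose, beside 3951 and 6180 of the 14238 genes then tested, and the median of all genes moved to 0.20 and that of the members to -0.21. In bulk RNA, fewer cells with a transcript and less of it per cell cannot be told apart.

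**Figure D1:**
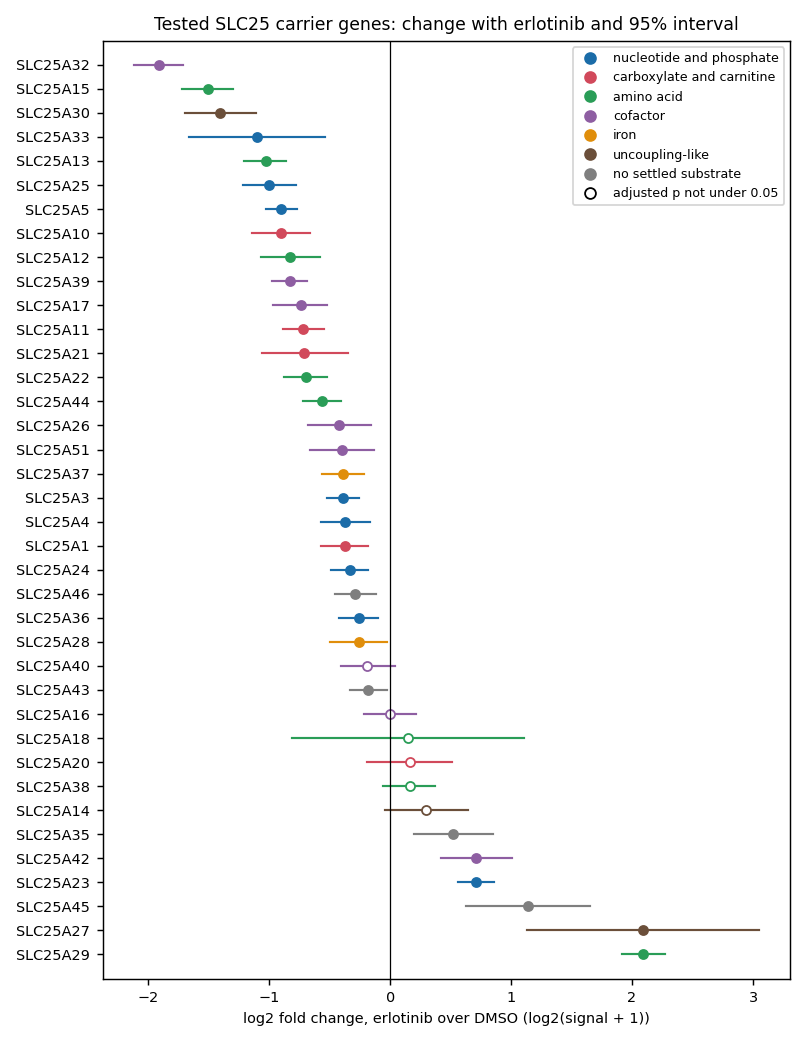
Change of the tested SLC25 genes with erlotinib, as the log2 fold change of signal + 1 with its 95% confidence interval (limma, 3 libraries per group), coloured by what the carrier moves; open points did not pass the test. The points run from -1.91 for SLC25A32 to 2.09 for SLC25A27 and SLC25A29, and most of them lie left of 0.

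Each class by cargo held at least 1 fall, where 35.4% of all tested genes fell and 35.3% rose. Of 8 tested carriers of nucleotides and phosphate 7 fell and 1 rose (median log2 fold change -0.38), and of 9 carriers of cofactors 6 fell and 1 rose (median -0.42). Of 8 amino acid carriers 5 fell and 1 rose (median -0.63), of 5 carriers of carboxylates or carnitine 4 fell and 0 rose (median -0.71), and both mitoferrins fell. Of 4 members without a settled substrate or transport role 2 fell and 2 rose, and of 3 carriers related to the uncoupling proteins 1 fell, 1 rose and 1 did neither. Scaled to the total count, the falls and rises were 4 and 1 for nucleotides and phosphate, 4 and 1 for cofactors, 5 and 2 for amino acids, 3 and 0 for carboxylates and carnitine, and 1 and 0 for the mitoferrins. On that scale they were 0 and 2 for members without a settled substrate and 1 and 2 for those related to the uncoupling proteins.

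The promoters of the members were searched for 3 motifs. RefSeq promoters of GRCh38.p14, from 250 bases before to 50 bases after the start, were matched for 40 of the 48 members. SLC25A32 and SLC25A30, both among the larger falls, were not among the 40 and were not searched. The E-box CACGTG, the site bound by MYC and related factors, reads the same on both strands and was found in 7 of the 40 (17.5%), beside 9.92% of the 11130 promoters of tested genes and 8.51% of all 18304. It was in 5 of 23 promoters of members that fell (21.7%), in 0 of 5 of those that rose and in 1 of 5 of those that did neither. Scaled to the total count, the falls of SLC25A36, SLC25A46 and SLC25A51 were not called, and the E-box was then in 2 of 14 promoters of members that fell (14.3%). The letters CCGGAAG, an ETS-type site, were found on either strand in 8 of the 40 (20.0%), beside 18.9% of promoters of tested genes. They were in 4 of 23 promoters of members that fell (17.4%), in 0 of 5 of those that rose and in 3 of 5 of those that did neither. The NRF1-type palindrome, GCGCA followed by its reverse complement, was in 0 of the 40, beside 2.35% of promoters of tested genes. A match describes letters only, and no match says nothing of a factor. The E-box was also in the promoters of SLC25A38, which did neither, and of SLC25A31, which was not tested, and these are not shown. The windows below hold the E-box, in capitals, in the 5 members that fell and had it. They are shown so that the bases around it can be compared. They lie on chromosomes 1 (chr1:9539417-9539466), 7 (chr7:96322225-96322274, minus strand), 9 (chr9:37904159-37904208, minus strand), 5 (chr5:110738938-110738987) and 3 (chr3:140941671-140941720).
SLC25A33: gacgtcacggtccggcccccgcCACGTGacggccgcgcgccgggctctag
SLC25A13: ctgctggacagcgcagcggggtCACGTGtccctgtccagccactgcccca
SLC25A51: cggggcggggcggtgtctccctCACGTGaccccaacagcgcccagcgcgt
SLC25A46: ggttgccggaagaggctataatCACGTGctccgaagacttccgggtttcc
SLC25A36: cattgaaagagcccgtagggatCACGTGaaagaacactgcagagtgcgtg

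Counted from the start that the promoter table uses, the E-box began 26 bases before it in SLC25A33, 47 in SLC25A46, 59 in SLC25A51, 143 in SLC25A36 and 154 in SLC25A13. For SLC25A46 that start lies inside the gene as RefSeq lists it, so its window is downstream of the gene's first base. The amino acid carriers with the largest fall and the largest rise, SLC25A15 and SLC25A29, had promoters of the same base composition, 80.0% G and C, and neither held any of the 3 motifs. Their 300-base promoters are shown for comparison, SLC25A15 at chr13:40789361-40789660 on the plus strand and SLC25A29 at chr14:100306395-100306694 on the minus strand.
SLC25A15: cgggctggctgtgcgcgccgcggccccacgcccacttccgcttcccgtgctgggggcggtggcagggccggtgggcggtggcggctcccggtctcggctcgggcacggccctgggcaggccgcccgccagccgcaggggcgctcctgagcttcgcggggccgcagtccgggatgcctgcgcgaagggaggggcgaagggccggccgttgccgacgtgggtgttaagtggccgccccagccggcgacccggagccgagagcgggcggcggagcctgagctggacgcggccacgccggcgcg
SLC25A29: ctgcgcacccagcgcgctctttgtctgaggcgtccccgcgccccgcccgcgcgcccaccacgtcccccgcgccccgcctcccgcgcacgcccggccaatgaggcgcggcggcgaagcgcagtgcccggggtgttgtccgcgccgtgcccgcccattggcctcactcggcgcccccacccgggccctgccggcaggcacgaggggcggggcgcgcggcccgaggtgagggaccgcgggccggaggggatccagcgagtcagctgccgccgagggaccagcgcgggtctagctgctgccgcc

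Among the cofactor carriers, the folate/FAD carrier SLC25A32 (chromosome 8, 103398638 to 103415107, GRCh38) fell the most of all members. Its signal was 1484, 1402 and 1288 in DMSO1 to DMSO3 and 348, 351 and 409 in Erlo4 to Erlo6, and the groups lay far apart. The mean went from 1391 ± 98.6 to 369 ± 34.3, a 3.77-fold fall (log2 fold change -1.91, SE 0.10, adjusted p = 4.7e-13). Exons of DCAF13 on the opposite strand cover 11.1% of its exon bases, and since the strand counted is not stated, such reads could be shared. DCAF13 was much less abundant, at a mean signal of 122, and also fell (log2 fold change -0.81).

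SLC25A39, a glutathione carrier and the most abundant of the class, was at 5871, 5542 and 6215 in DMSO and 3231, 3534 and 3133 with erlotinib (log2 fold change -0.83, SE 0.07, adjusted p = 1.0e-09). Its relative SLC25A40 had 651, 812 and 649.7 against 646, 557 and 645 and did not pass the test (log2 fold change -0.19, 95% confidence interval -0.41 to 0.04). The change of SLC25A40 was about as large as the spread of its DMSO libraries, of which DMSO2 was the highest, and the groups did not overlap, by a narrow gap.

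Peroxisomal SLC25A17, which carries coenzyme A, FAD and NAD+, fell by 0.74 on the log2 scale (adjusted p = 3.3e-06). SLC25A26, which brings S-adenosylmethionine into mitochondria, fell by 0.42 (adjusted p = 0.00541), and the NAD+ carrier SLC25A51 fell by 0.40 (adjusted p = 0.00885). The falls of SLC25A26 and SLC25A51 were not called with scaling to the total count or in the edgeR and DESeq2 tests on 5 libraries. That of SLC25A51 was also lost with limma-voom on the 5 libraries and without Erlo5. SLC25A42, the mitochondrial coenzyme A carrier, was the member of the class that rose. It had 230.3, 218 and 205 in DMSO and 437, 327 and 319 with erlotinib, a 1.66-fold rise (log2 fold change 0.71, SE 0.14, adjusted p = 1.5e-04). Erlo4 was the highest of its erlotinib libraries, and none of them reached down to the DMSO range. SLC25A16, linked to coenzyme A import, was at 661 ± 70.1 in DMSO and 657 ± 37.3 with erlotinib (log2 fold change -0.004, 95% confidence interval -0.22 to 0.21).

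Amino acid carriers held both the steepest rise among well-expressed members and some of the largest falls. SLC25A29, the carrier of basic amino acids such as arginine and lysine (chromosome 14, 100278567 to 100306444), had 702, 565 and 645 in DMSO and 2769, 2640.2 and 2739 with erlotinib. Every erlotinib library was several times the highest DMSO library, and the spread within each group was small. The mean went from 637 ± 69.1 to 2716 ± 67.5, a 4.26-fold rise (log2 fold change 2.09, SE 0.09, adjusted p = 1.3e-14). SLC25A15, the ornithine carrier of the urea cycle (chromosome 13, 40789611 to 40812460), went the other way, with 896, 902 and 834 in DMSO and 305, 299 and 319 with erlotinib. Both groups were tight and wide apart, with a 2.85-fold fall (log2 fold change -1.51, SE 0.10, adjusted p = 3.0e-11).

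The aspartate/glutamate carriers of the malate-aspartate shuttle both fell. Citrin, SLC25A13 (chromosome 7, 96120220 to 96322098), had 1570, 1759 and 1533 in DMSO and 781, 817 and 772 with erlotinib, a 2.05-fold fall (log2 fold change -1.03, SE 0.08, adjusted p = 6.1e-10). Aralar, SLC25A12, had 474, 533 and 441 in DMSO and 281, 273 and 259 with erlotinib (log2 fold change -0.83, SE 0.12, adjusted p = 2.9e-06). In both genes DMSO2 was the highest library and the erlotinib libraries lay close together. The glutamate carrier SLC25A22 fell from 1332 ± 89.3 to 819 ± 25.2 (log2 fold change -0.70, adjusted p = 2.7e-07), and SLC25A44, a carrier of branched-chain amino acids, fell from 2299 ± 131 to 1557 ± 72.9 (log2 fold change -0.56, adjusted p = 1.1e-06). SLC25A18, the other glutamate carrier, had few reads, with 17.6 ± 6.81 in DMSO and 19.3 ± 5.42 with erlotinib, and its interval of -0.81 to 1.11 on the log2 scale left the direction undetermined at this depth. SLC25A38, the glycine carrier needed for haem synthesis, was at 531 ± 30.2 and 592 ± 44.1 (log2 fold change 0.16, adjusted p = 0.181). Scaled to the total count, SLC25A38 passed as higher (log2 fold change 0.33, adjusted p = 0.0073).

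The nucleotide and phosphate class held the members with the highest signal, SLC25A5 and SLC25A3, before any account of length. SLC25A5, the ADP/ATP carrier ANT2 (chromosome X, 119468444 to 119471396), had a signal of 22878, 24696 and 22122 in DMSO and 12744, 12445 and 12204 with erlotinib. The groups did not approach each other, and the fall was 1.86-fold (log2 fold change -0.90, SE 0.06, adjusted p = 6.8e-11). SLC25A4, the ADP/ATP carrier ANT1, was at 981 ± 42.4 in DMSO and 762 ± 86.8 with erlotinib (log2 fold change -0.37, adjusted p = 0.00173), a fall that was not called with scaling to the total count. SLC25A3, which imports the phosphate used by ATP synthase, had 6032, 6538 and 6094 in DMSO and 4917, 4639 and 4678 with erlotinib (log2 fold change -0.39, SE 0.06, adjusted p = 1.6e-05).

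The calcium-dependent carriers that exchange ATP-Mg for phosphate split by isoform. SLC25A23 had 2053, 1744 and 1913 in DMSO and 3103, 3168 and 3051 with erlotinib, a 1.63-fold rise (log2 fold change 0.71, SE 0.07, adjusted p = 3.0e-08). SLC25A25 (chromosome 9, 128068232 to 128109245) had 869, 967 and 1042 in DMSO and 520.5, 424 and 495 with erlotinib, a 2.00-fold fall (log2 fold change -1.0, SE 0.10, adjusted p = 3.3e-08), just short of 1 log2 unit before rounding. SLC25A24 had 3082, 3588 and 3195 against 2776, 2458 and 2594 (log2 fold change -0.33, SE 0.07, adjusted p = 5.1e-04). In none of the 3 did the groups overlap, and the erlotinib libraries were above the DMSO libraries only in SLC25A23. The fall of SLC25A24 was lost when libraries were scaled to the total count.

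The pyrimidine nucleotide carriers both fell. SLC25A33 (chromosome 1, 9539465 to 9585173) had 120.2, 82.7 and 84.6 in DMSO and 53.5, 49.5 and 30.9 with erlotinib, a 2.15-fold fall (log2 fold change -1.10, SE 0.27, adjusted p = 0.00105). DMSO1 was the highest and Erlo6 the lowest, and the spread within each group was wide for so low a gene. SLC25A36, the more abundant form, went from 3806 ± 409 to 3165 ± 117 (log2 fold change -0.26, adjusted p = 0.00446), a fall that was not called with scaling to the total count.

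**Figure D2:**
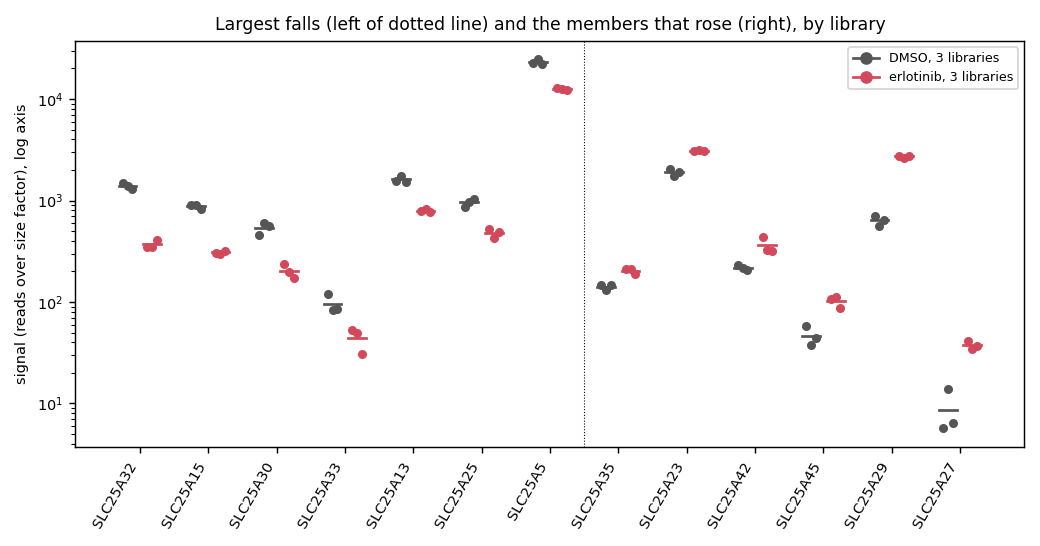
Signal in each library, on a log axis, for the members with the largest falls, left of the dotted line, and for the 6 members that rose, right of it; grey points are the 3 DMSO libraries and red points the 3 erlotinib libraries. In none of the genes shown do the groups overlap, and SLC25A27, at 5.67 to 13.9 in DMSO, is the least abundant.

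Of the carboxylate carriers, SLC25A10, which exchanges malate and succinate for phosphate (chromosome 17, 81712284 to 81721012), had 1258, 862 and 1144 in DMSO and 552, 606 and 566 with erlotinib. DMSO2 was the lowest DMSO library and still lay above every erlotinib library, and the fall was 1.89-fold (log2 fold change -0.90, SE 0.11, adjusted p = 5.4e-07). SLC25A11, the oxoglutarate/malate carrier of the malate-aspartate shuttle, had 1955, 1936 and 1958 in DMSO and 1240.3, 1267 and 1062 with erlotinib (log2 fold change -0.72, SE 0.08, adjusted p = 1.1e-07). Its DMSO libraries were the closest of any tested member, with a coefficient of variation of 0.591%. The citrate carrier SLC25A1, which supplies citrate for fatty acid synthesis, went from 1908 ± 287 to 1463 ± 54.3 (log2 fold change -0.37, adjusted p = 0.0014), and was not called with scaling to the total count. SLC25A21, the oxodicarboxylate carrier, went from 258 ± 30.4 to 159.7 ± 32.9 (log2 fold change -0.71, adjusted p = 9.2e-04). Exons of PAX9 on the opposite strand cover 30.3% of its exon bases, and PAX9, at a mean signal of 528, also fell (log2 fold change -0.43), so these genes cannot be told apart where they overlap. SLC25A20, the carnitine/acylcarnitine carrier, had 125, 129 and 131 in DMSO and 147, 146 and 139 with erlotinib and did not pass the test (log2 fold change 0.16, 95% confidence interval -0.19 to 0.51), although the groups did not overlap.

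The mitoferrins carry iron into the matrix for haem and iron-sulphur clusters. SLC25A37, mitoferrin 1, had 2187, 2658 and 2369 in DMSO and 1861, 1925 and 1710.2 with erlotinib (log2 fold change -0.39, adjusted p = 2.3e-04). SLC25A28, mitoferrin 2, was at 565 ± 81.9 in DMSO and 468 ± 25.9 with erlotinib and passed narrowly (log2 fold change -0.26, adjusted p = 0.0452). The call of SLC25A28 was lost in most of the other settings tried, among them leaving out DMSO3 or any 1 of the erlotinib libraries.

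The carriers related to the uncoupling proteins moved in opposite directions. SLC25A30, first known from the kidney (chromosome 13, 45393316 to 45434016) had 454, 603 and 561 in DMSO and 239, 199 and 171 with erlotinib, a 2.65-fold fall (log2 fold change -1.41, SE 0.14, adjusted p = 2.1e-08). SLC25A27, UCP4, known mainly from the brain (chromosome 6, 46652975 to 46678190), had 5.67, 13.9 and 6.42 in DMSO and 41.5, 34.6 and 36.5 with erlotinib, a 4.33-fold rise from a low level (log2 fold change 2.09, SE 0.46, adjusted p = 4.0e-04). Its DMSO libraries held few reads, and with a pseudocount of 10 its log2 fold change was 1.37. SLC25A14, UCP5, had 146, 189 and 142 in DMSO and 200.3, 180.2 and 206 with erlotinib, and DMSO2 lay within the erlotinib range (log2 fold change 0.30, 95% confidence interval -0.04 to 0.64). SLC25A14 passed as higher when scaled to the total count (log2 fold change 0.48, adjusted p = 0.014). UCP2, an uncoupling protein of the same carrier fold, rose from 221 ± 13.6 to 421 ± 39.5 (log2 fold change 0.92, adjusted p = 1.7e-06). UCP3 was at 13.4 ± 9.02 and 17.8 ± 8.07 (adjusted p = 0.425), and UCP1 had too little signal to test. The outer membrane relatives MTCH2 and MTCH1 fell by 0.79 (adjusted p = 8.8e-08) and 0.26 (adjusted p = 0.00744) on the log2 scale. The fall of MTCH1 was not called when libraries were scaled to the total count (log2 fold change -0.08, adjusted p = 0.37), nor without DMSO1 (adjusted p = 0.059) or without Erlo6 (adjusted p = 0.061).

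Among members without a settled substrate, SLC25A45 (chromosome 11, 65375192 to 65383701) had 57.9, 38.1 and 43.9 in DMSO and 108, 113 and 88.0 with erlotinib, a 2.21-fold rise (log2 fold change 1.14, SE 0.24, adjusted p = 3.1e-04). SLC25A35 (chromosome 17, 8287763 to 8295400) had 147, 131 and 147 in DMSO and 210.4, 212 and 189 with erlotinib (log2 fold change 0.52, SE 0.16, adjusted p = 0.00538). In both genes all erlotinib libraries lay above all DMSO libraries. Exons of RANGRF on the opposite strand cover 28.7% of the exon bases of SLC25A35, and RANGRF, at a mean signal of 50.5, fell (log2 fold change -1.0). SLC25A46, an outer membrane protein of mitochondrial dynamics, fell by 0.29 on the log2 scale (adjusted p = 0.00345), and SLC25A43 fell by 0.18 (adjusted p = 0.0348). With scaling to the total count neither fall was called, and the log2 fold change of SLC25A43 was 0.00098. The call of SLC25A43 was lost in 8 of 16 alternatives, among them leaving out DMSO3 (adjusted p = 0.071), Erlo5 (0.13) or Erlo6 (0.12) and the count tests on 5 libraries.

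Because several carriers have a close relative with the same cargo, levels were compared per kb of exons and the log2 ratio of each pair was taken within a library. Reads across introns were not split in the alignment, and only uniquely mapped reads were counted. How many reads each gene lost by this was not tested, which limits any comparison of levels between genes, the sign of a ratio included. Of 14 pairs, some of which share a member, 11 had ratios that did not overlap between the groups, beside the 73.6% of single tested genes whose groups did not. For these the exact two-sided permutation test gave p = 0.10, the smallest that 3 against 3 libraries allow, and 0.13 after Benjamini-Hochberg adjustment over the pairs, so the design could not reach the threshold. SLC25A23 to SLC25A24 changed sign, with log2 ratios of signal per kb of -0.12, -0.58 and -0.28 in DMSO and 0.62, 0.83 and 0.70 with erlotinib. SLC25A14 to SLC25A30 went from -0.59 ± 0.19 to 1.13 ± 0.27, but with the length of the longest transcript from 0.04 ± 0.19 to 1.76 ± 0.27, so that its sign in DMSO depended on the length used. The sign change of SLC25A23 to SLC25A24 was there with that length too, from -0.50 ± 0.23 to 0.54 ± 0.10. SLC25A23 to SLC25A25 widened from 1.27 ± 0.22 to 2.98 ± 0.18. In these 3 pairs the ratio was higher in every erlotinib library than in any DMSO library.

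SLC25A30 to SLC25A27 went from 5.02 ± 0.55 to 1.38 ± 0.17, the greatest shift of the 14, and SLC25A14 to SLC25A27 from 4.43 ± 0.48 to 2.51 ± 0.11. The size of these shifts rests on the few reads of SLC25A27, at a signal of 5.67, 13.9 and 6.42 in DMSO. Unlike the log2 fold changes, the ratios were taken without a pseudocount. SLC25A33 to SLC25A36 went from -3.91 ± 0.38 to -4.77 ± 0.42, and SLC25A39 to SLC25A40 from 3.60 ± 0.26 to 2.95 ± 0.21. Both of these ratios moved by less than 1 log2 unit and kept their sign. SLC25A16 to SLC25A42 went from 0.84 ± 0.18 to 0.12 ± 0.31, with Erlo4 below 0, or from 0.59 ± 0.18 to -0.13 ± 0.31 with the longest transcript. SLC25A4 to SLC25A5 rose from -6.20 ± 0.10 to -5.67 ± 0.15, SLC25A24 to SLC25A25 from 1.6 ± 0.14 to 2.26 ± 0.08, and SLC25A12 to SLC25A13 from -2.47 ± 0.04 to -2.27 ± 0.06. The groups overlapped for SLC25A28 to SLC25A37 (p = 0.60), SLC25A10 to SLC25A11 (p = 0.30) and SLC25A18 to SLC25A22 (p = 0.20, exact permutation tests).

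**Figure D3:**
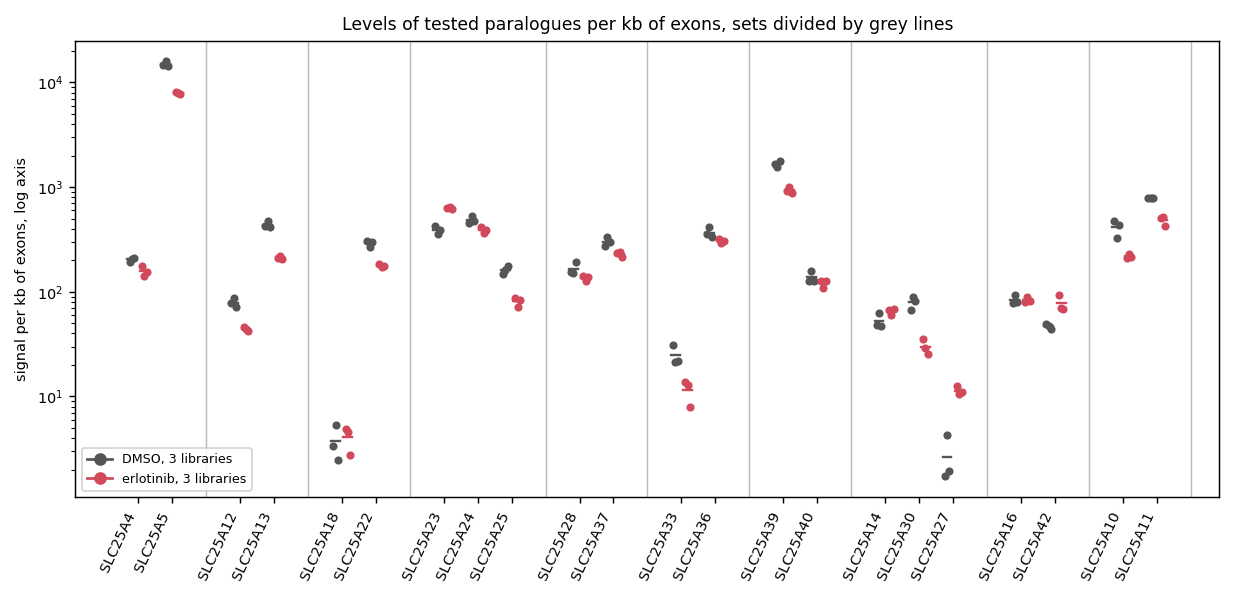
Signal per kb of exons, on a log axis, of each tested member of the sets of related carriers, with grey points for the 3 DMSO libraries and red points for the 3 erlotinib libraries and grey lines between sets. Within the ATP-Mg/phosphate set SLC25A23 rises above SLC25A24 with erlotinib, and in the uncoupling-like set SLC25A30 falls while SLC25A27 rises.

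The limit given above for unsplit and uniquely mapped reads also holds for the order and sums of members per kb. Per kb of exons SLC25A5 stood far above every other member with reads, at 14940.2 ± 851 in DMSO and 8016 ± 174 with erlotinib. SLC25A39 followed at 1666 ± 95.4 and 936 ± 59.3 per kb, then the citrate carrier SLC25A1 at 954 ± 144 and 732 ± 27.2. These were the first 3 in both groups, and the order after them differed. In DMSO SLC25A11 (789 ± 4.66), SLC25A43 (712 ± 22.1) and SLC25A3 (699 ± 31.0) came next, the last 2 within their spread. With erlotinib SLC25A23 (637 ± 12) and SLC25A43 (629 ± 31.1), again within their spread, came before SLC25A3 (533 ± 16.9) and SLC25A11 (482 ± 45.0). By the mean over all libraries the first 5 were SLC25A5, SLC25A39, SLC25A1, SLC25A43 and SLC25A11, and with the length of the longest transcript in place of the exon union SLC25A3 took the place of SLC25A43. In the sums that follow SLC25A6, whose level is not known from these values, counts as 0. The summed signal per kb of all members was 25393, 26347 and 24921 in DMSO and 16326, 15999 and 15619 with erlotinib, a ratio of means of 0.625. Scaled to the total count the ratio was 0.708. SLC25A5 made up 57.9%, 60.3% and 57.1% of that sum in DMSO and 50.2%, 50% and 50.2% with erlotinib. Without SLC25A5 the sum went from 10614 ± 129 to 7966 ± 182, a ratio of 0.751. The members took 0.304%, 0.328% and 0.315% of all signal in DMSO and 0.262%, 0.25% and 0.248% with erlotinib, so their share of the libraries was lower in each erlotinib library than in any DMSO library.

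**Figure D4:**
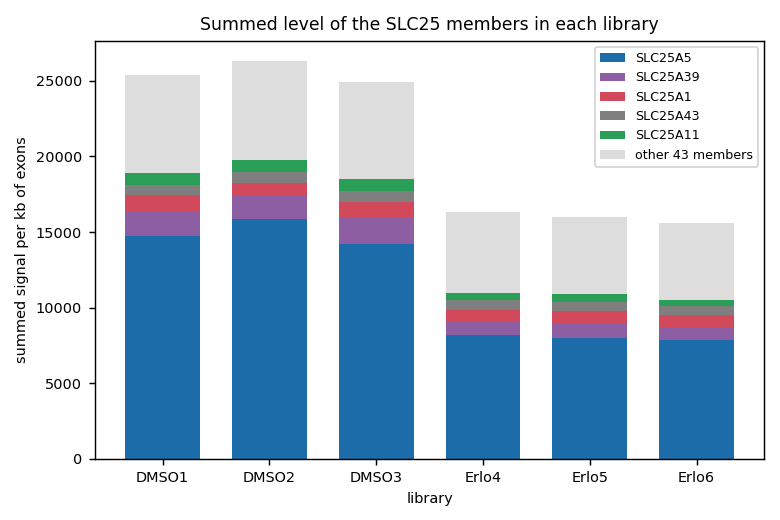
Summed signal per kb of exons of the SLC25 members in each library as stacked bars, with the most abundant members coloured and the others in light grey. The DMSO bars reach 24921 to 26347 and the erlotinib bars 15619 to 16326, and SLC25A5 is the largest block in each.

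The 9 members below the test's minimum had few or no reads. SLC25A34, without a settled substrate, had 2, 2 and 4 reads in DMSO and 8 and 7 in Erlo4 and Erlo6. SLC25A2, an ornithine carrier without introns, had 6, 9 and 12 reads in DMSO and 5 and 7 in Erlo4 and Erlo6. In both the groups did not overlap in signal, with SLC25A34 higher and SLC25A2 lower with erlotinib, at counts too low to test. SLC25A53 reached at most 11 reads in the 5 libraries, SLC25A52 6, SLC25A47 4, SLC25A41 3 and SLC25A48 1. SLC25A31, the ADP/ATP carrier of the germ line, was at 0 throughout. SLC25A6, the ADP/ATP carrier ANT3 (chromosome X, 1386152 to 1392113), was also listed at 0 in all 6 libraries. It lies in pseudoautosomal region 1, and its transcript aligned with 100% identity to a copy on chromosome Y. Only uniquely mapped reads were counted, and 20 of the 22 genes listed for that region were at 0 in every library, so the level of SLC25A6 is not known from these values. No other member had a copy at the limits set for near-identical copies, 90% of the transcript at 97% identity. SLC25A5 had 8 partial-identity copies, of 91.29% to 93.66%, and SLC25A51 had 6, of up to 96.67%.

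Genes related to the carriers were read from 10 lists, which the SLC25 members are not part of. The lists hold genes of carrier import, genes that use what carriers carry, other mitochondrial transporters and channels, and relatives under other symbols. Together 131 of these genes were tested, of which 81 fell (61.8%, beside 35.4% of all tested genes), 23 rose (17.6%, beside 35.3%) and 27 did neither. Of the 131, 63 fell and 29 rose when scaled to the total count, beside 3951 and 6180 of the 14238 genes then tested. With the deposited scaling the median log2 fold change of the 131 was -0.41. Carrier import genes mostly fell: of 15 tested genes of the TOM and TIM translocases 12 fell and 0 rose (median -0.89). The channel of the outer membrane translocase, TOMM40, fell from 3538 ± 386 to 857 ± 12.2 (log2 fold change -2.04, adjusted p = 1.0e-14). TOMM5, a small subunit of the same complex, fell from 4491 ± 119 to 1197 ± 16.4 (log2 fold change -1.91). The intermembrane space chaperones TIMM10 and TIMM8A, which escort carrier precursors, fell by 1.92 and 1.54 on the log2 scale. TIMM22, the insertion channel for carriers, was listed at 0 in all libraries, and since cells in general use it, its level is not known from these values.

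Of 16 folate one-carbon genes 12 fell and 1 rose (median -0.88), alongside SLC25A32. Among all tested genes 35.4% fell and 35.3% rose. SHMT1, the cytosolic serine hydroxymethyltransferase, fell from 1334 ± 83.2 to 438 ± 33.4 (log2 fold change -1.6, adjusted p = 4.0e-12). AMT, the aminomethyltransferase of the glycine cleavage system, was the one that rose, from 21.8 ± 16.4 to 119 ± 13 (log2 fold change 2.62, adjusted p = 2.0e-06). GLDC, of the same system, fell by 2.26 on the log2 scale from a low level (18.9 ± 4.82 in DMSO, adjusted p = 0.0135), a call lost without DMSO3 (log2 fold change -2.10, adjusted p = 0.060) or without Erlo4 (log2 fold change -1.25, adjusted p = 0.070). Of 13 genes of the malate-aspartate shuttle and citrate use 9 fell and 1 rose (median -0.70). The aspartate aminotransferases GOT2 and GOT1 fell by 1.25 (adjusted p = 5.1e-13) and 1.17 (adjusted p = 2.1e-10) on the log2 scale. ACLY, which splits cytosolic citrate, fell by 1.14 and the malate dehydrogenase MDH1 by 0.93, while the isocitrate dehydrogenase IDH1 rose by 0.49.

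Of 17 genes of haem and iron-sulphur cluster synthesis 13 fell and 3 rose (median -0.46), or 9 and 3 with scaling to the total count (median -0.28). Over all tested genes 35.4% fell and 35.3% rose, or 3951 and 6180 of 14238 with that scaling. GLRX5, which serves cluster assembly, fell by 1.24 on the log2 scale (adjusted p = 1.9e-12). The haem synthesis enzymes PPOX and ALAD rose by 1.24 (adjusted p = 1.8e-05) and 1.11 (adjusted p = 6.0e-11), and the cluster scaffold ISCU rose by 0.54. Of 10 genes of mitochondrial DNA and its nucleotides 8 fell and 1 rose (median -0.61). TFAM, which packages mitochondrial DNA, fell from 4478 ± 338 to 1947 ± 99.6 (log2 fold change -1.2, adjusted p = 6.7e-12). MGME1 and SSBP1 fell by 1.03 and 1.08, and the mitochondrial thymidine kinase TK2 rose by 1.48 (adjusted p = 6.8e-10). Of 19 other mitochondrial transporters and channels 10 fell and 2 rose (median -0.40), or 8 and 5 with scaling to the total count (median -0.22). The outer membrane channel VDAC1 fell from 8600.3 ± 622 to 3033 ± 107 (log2 fold change -1.50, adjusted p = 5.8e-14) and VDAC3 fell by 0.94. The serine carrier SFXN1 fell by 1.38 and the haem-linked transporter ABCB10 by 0.97, while SFXN3 rose by 0.51.

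Carnitine shuttle and fatty acid oxidation was the list with more rises than falls under the deposited scaling. Of its 13 tested genes 7 rose and 3 fell (median 0.32), beside 35.3% and 35.4% of all tested genes (median 0.02). Scaled to the total count, its counts were the same and its median 0.50, beside 6180 rises and 3951 falls among 14238 genes (median 0.20). CPT1A, the enzyme that commits fatty acids to the carnitine shuttle, rose from 68.4 ± 14.1 to 397 ± 12.6 (log2 fold change 2.54, adjusted p = 4.2e-11). Short-chain acyl-CoA dehydrogenase ACADS and carnitine acetyltransferase CRAT rose by 1.22 and 1.2 on the log2 scale, and the acyl-CoA synthetase ACSL3 fell by 1.65 (adjusted p = 1.4e-13). Of 11 genes of ornithine, proline and glutamate metabolism 6 fell and 3 rose (median -0.21), beside 35.4% and 35.3% of all tested genes. With scaling to the total count 3 fell and 4 rose (median -0.03), beside 3951 and 6180 of all 14238 genes. ODC1, which turns ornithine into putrescine, fell from 7911 ± 369.9 to 2207 ± 110.4 (log2 fold change -1.84, adjusted p = 2.0e-15), and ALDH18A1, of proline and ornithine synthesis, fell by 0.99. ASS1, argininosuccinate synthase of the urea cycle, rose from 24.6 ± 8.26 to 95.1 ± 16.2 (log2 fold change 1.95, adjusted p = 7.9e-06), and the glutaminase GLS2 rose by 1.17. Of 13 genes of NAD, coenzyme A and S-adenosylmethionine supply 6 fell and 4 rose (median -0.10), beside 35.4% and 35.3% of all tested genes. With scaling to the total count 2 fell and 5 rose, and the median, at 0.07, changed sign. The median of all tested genes moved the same way, from 0.02 to 0.20. The pantothenate kinases, which start coenzyme A synthesis, moved apart, with PANK1 higher by 1.19 (adjusted p = 2.4e-10) and PANK3 lower (log2 fold change -0.81, adjusted p = 5.3e-08). NNT and PPCS both rose by 0.59. In the list of 4 tested relatives under other symbols 2 fell and 1 rose, or 1 and 1 with scaling to the total count, where the median went from 0.15 to 0.32.

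**Figure D5:**
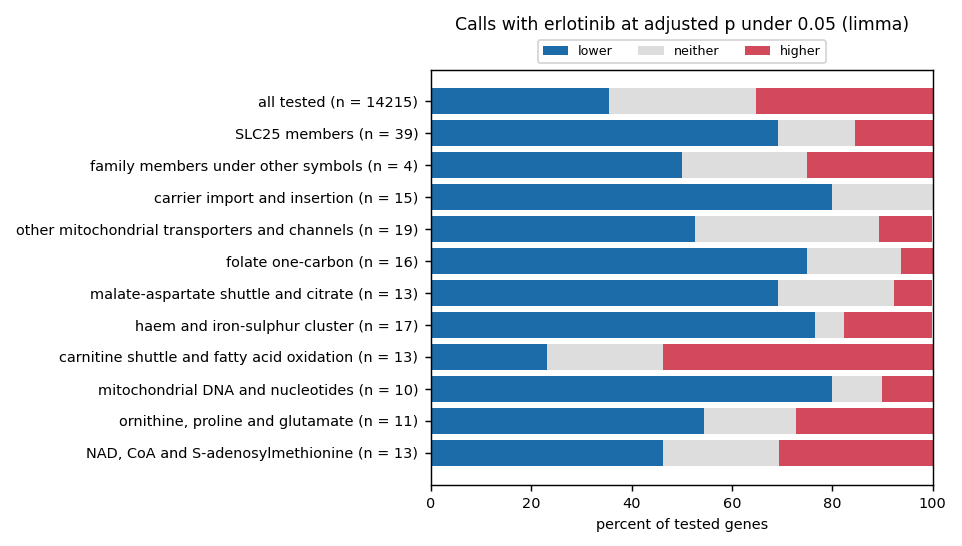
Share of tested genes that were lower, neither or higher with erlotinib at an adjusted p-value under 0.05 (limma), for all tested genes, the SLC25 members and each list, with the number of genes tested beside each name. The bar for the SLC25 members is 69.2% lower and 15.4% higher, beside 35.4% and 35.3% for all tested genes.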

How the data were processed

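For these RNA-seq libraries, the authors aligned read pairs with Bowtie2 2.3.4 (genome GRCh38), which does not split reads across introns, and counted uniquely mapped reads with featureCounts 1.6.3. Their notes also name DESeq2 1.18.1. The deposited table was called counts, but its values are signal, that is reads divided by a size factor per library, and the strand counted is not given in the sources used here. A count test had been foreseen for it only as an alternative. In each of the 6 libraries 100% of values were whole multiples of its step, within 0.1 of a whole number. The step of Erlo5, 0.99, lies too near 1 for the test of recovered reads that was applied, so count tests used the other 5 libraries. Of the columns of values per library, 0 were left out, and the Entrez number stood for the name of 475 genes that had no symbol.

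All 6 libraries were compared with limma 3.58.1 on log2(signal + 1), with a variance trend, over genes whose mean signal was 10 or more, two-sided, with Benjamini-Hochberg adjustment and a threshold of 0.05. A log2 fold change is on that scale, which understates low genes, while a value given as so many fold is the ratio of mean signals. Lists were described by counts and medians. Exon lengths came from GENCODE, positions and promoters from RefSeq GRCh38.p14, and copies from minimap2 2.31-r1302 at 90% covered and 97% identity. The members and lists were chosen with earlier results of these data known. Named were the 8 largest falls and up to 8 largest rises past the threshold without overlap, members of the paralogue sets, the 5 highest per kb, untested members by their reads, and 4 genes of each list. Others (SLC25A17, SLC25A26, SLC25A44, SLC25A51, SLC25A20, SLC25A21, SLC25A38, SLC25A46, SLC25A3, UCP3, IDH1, ISCU, SFXN3 and overlapping genes) were named after their values were seen. A few genes that the rule would name are not reported here, nor drawn in plots of single genes, but they count in all numbers of genes, sums and medians. The fit was tested on simulated data. Alternatives were other scalings, pseudocounts of 0.1 and 10, other filters, a threshold of 0.01, each library left out, and edgeR 4.0.16, DESeq2 1.42.0 and limma-voom on the 5 libraries. Other software was R 4.3.3, Python 3.11.15 and matplotlib 3.10.9.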

Additional observations from a re-analysis of the deposited data

How the results depend on the processing

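Of the 27 members that fell, 18 kept that call in all 16 alternatives, and all 6 that rose kept theirs, except that SLC25A27 could not be tested with at least 10 reads in every library. The falls not kept in all were those of SLC25A1, SLC25A4, SLC25A24, SLC25A26, SLC25A28, SLC25A36, SLC25A43, SLC25A46 and SLC25A51. Scaling to the total count had the widest effect, with 18 falls and 8 rises and a ratio of summed signal per kb of 0.708 in place of 0.625. It also turned the log2 fold changes of SLC25A43 (0.00098), GLUD1 (0.0027) and SLC25A16 (0.18) above 0, and TMM factors in limma gave 0.01 for SLC25A16; none of these 4 values passed the test. Leaving out each library in turn, the log2 fold change of SLC25A16 ranged from -0.06 to 0.08 and that of SLC25A18 from -0.09 (without DMSO3) to 0.43, and the change of the log2 ratio of SLC25A28 to SLC25A37 from -0.02 (without DMSO2) to 0.25. With each library left out, 24 to 27 members fell and 6 to 7 rose, and the ratio of summed signal per kb was 0.618 to 0.635. The edgeR and DESeq2 tests on 5 libraries, chosen after seeing the data, each called 23 falls and 6 rises, and limma-voom 24 and 6. The tests on whole reads of all 6 libraries were not run. Except by construction, the cause of these differences was not tested. Members under about 20 signal, SLC25A18 among them, had few or no counted reads, and whether depth limited their results was not tested. No paired analysis was possible because the erlotinib columns carry the numbers 4 to 6, which no DMSO column shares.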

Other observations

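Other genes named after SLC25 members were outside the family. The antisense gene SLC25A21-AS1 had a signal of 71.5, 78.0 and 52.4 in DMSO and 159, 119.8 and 124 with erlotinib, and all erlotinib libraries lay above the DMSO libraries (log2 fold change 0.99, SE 0.22, adjusted p = 3.9e-04 with limma), while SLC25A21 fell by 0.71 on the same scale. SLC25A5-AS1 was at 82.6 ± 8.99 in DMSO and 104 ± 12.1 with erlotinib (log2 fold change 0.33, adjusted p = 0.154), and SLC25A25-AS1 at 112 ± 44.2 and 123 ± 9.30 (adjusted p = 0.436). Without the strand counted, reads of these genes and of their partners cannot be told apart where exons overlap. SLC25A30-AS1 had a mean signal of 1.34, and the pseudogenes SLC25A3P1, SLC25A47P1 and SLC25A51P1 were listed at 0 in all libraries.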
